A study of Mus musculus with 16 samples.

Results

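The genes described here are 63 protein-coding zinc finger genes of the mouse whose mm10 symbols run from Zfp930 to Zfp995. They were picked by symbol (Zfp9 followed by any pair of digits) from the 52636 genes counted in these libraries. The range of symbols was set with earlier results of these data known. A further gene with such a symbol, Zfp939, is not annotated as protein coding and was left out. The data were bulk RNA-seq counts from dorsal root ganglia (DRGs), the ganglia that hold the cell bodies of sensory neurons, and asked how a long-term nerve injury and the tricyclic antidepressant desipramine (DMI), an inhibitor of noradrenaline reuptake, change their transcripts. All 16 animals were male C57Bl6/J mice of 3 to 4 months, and L3 to L6 DRGs were taken from each. Spared nerve injury (SNI), in which part of the sciatic nerve is cut, or sham surgery came first, and injections began 4 weeks later by the labels. Sham-Saline and SNI-Saline mice received saline, and Sham-DMI and SNI-DMI mice received DMI at 15 mg/kg i.p. 2 times a day for 3 weeks, with 4 mice and 4 libraries in each of the 4 groups.

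KRAB zinc finger proteins are DNA-binding repressors that bind their targets through an array of C2H2 zinc fingers and silence them through the KRAB domain. That domain recruits the scaffold Trim28, which brings the histone H3K9 methyltransferase Setdb1, HP1 proteins and histone deacetylases, and many of the known targets are transposable elements such as endogenous retroviruses. The genes arose by repeated tandem duplication, so that they lie in clusters, resemble each other closely and differ between species.

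By a sequence motif for the KRAB domain, 60 of the 63 encoded proteins held one, and the exceptions were Zfp956, Zfp957 and Zfp974. The number of zinc finger motifs per protein ran from 0 to 21 with a median of 11, and 3 proteins (Zfp935, Zfp957 and Zfp972) held no stretch with the exact spacing that was searched. The coding unit of a finger is shown for 8 members whose counts are described further on, because it is the repeat that these genes have in common. Each line is the first unit of 84 bases in the coding sequence that fits a fixed finger and linker pattern (28 codons, from the first cysteine of a finger to the last codon of the linker before the next finger) on the coding strand of GENCODE M21 on GRCm38, and capitals mark the codons of the zinc-binding cysteines and histidines. It need not be the first finger, so the units of different genes may hold different positions in their arrays.
Zfp942: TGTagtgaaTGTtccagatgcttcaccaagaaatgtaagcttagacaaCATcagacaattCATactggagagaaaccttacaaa
Zfp944: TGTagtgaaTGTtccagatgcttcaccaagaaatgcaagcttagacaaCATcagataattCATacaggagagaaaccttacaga
Zfp946: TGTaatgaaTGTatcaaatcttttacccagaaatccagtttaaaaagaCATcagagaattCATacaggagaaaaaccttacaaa
Zfp934: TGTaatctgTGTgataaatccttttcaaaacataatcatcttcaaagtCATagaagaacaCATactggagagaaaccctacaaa
Zfp938: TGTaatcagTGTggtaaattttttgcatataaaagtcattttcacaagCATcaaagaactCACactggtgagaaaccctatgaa
Zfp967: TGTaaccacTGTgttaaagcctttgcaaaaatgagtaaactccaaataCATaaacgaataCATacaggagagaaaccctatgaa
Zfp969: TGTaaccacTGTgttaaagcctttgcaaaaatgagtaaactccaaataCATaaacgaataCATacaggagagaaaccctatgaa
Zfp954: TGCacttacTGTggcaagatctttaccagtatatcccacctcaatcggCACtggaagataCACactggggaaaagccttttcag

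The units of Zfp942 (chr17:21929011-21929094, minus strand), Zfp944 (chr17:22339629-22339712, minus strand) and Zfp946 (chr17:22454996-22455079, plus strand) come from genes of the same cluster on chromosome 17. Zfp942 and Zfp944 were identical at 80 of the 84 bases, and Zfp942 and Zfp946 at 64. The unit of Zfp934 (chr13:62518268-62518351, minus strand) matched that of Zfp942 at 53 bases, and so did that of Zfp938 (chr10:82225813-82225896, minus strand). Zfp967 (chr2:176530825-176530908, plus strand) and Zfp969 (chr2:175693794-175693877, minus strand), which lie apart on chromosome 2, carried the same 84 bases. Zfp954 (chr7:7115863-7115946, minus strand) was the furthest from Zfp942 of those shown, with 47 identical bases, and its unit had a GC content of 46.4% against 29.8% to 38.1% in the other units shown.

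The libraries held 41194238 to 73920332 reads on genes, and the DMI libraries carry the label numbers 17 to 24 while the saline libraries carry 33 to 40, with SNI-Saline at 33 to 36 and Sham-Saline at 37 to 40. What the numbers stand for is not given, so treatment and injury cannot be told apart from any batch they mark. The labels name the tissue both spinal cord and dorsal root ganglia, and most markers were those of DRG. All 10 sensory neuron markers passed the filter on low counts, Prph running from 1436 to 1959.9 CPM (read counts scaled to library size). Of 12 spinal cord markers 8 did not pass it, and Lhx1, Lhx5 and Mnx1 were at 0 in at least 1 library. The other 4 passed: Olig1, Mog, Pax2 at 0.90 to 2.61 CPM and Aldh1l1 at 11.2 to 17.4 CPM. Of these 4, 1 was higher in SNI-Saline than in Sham-Saline. Of 7 injured-neuron markers, 6 were higher in SNI-Saline than in Sham-Saline. Libraries also differed in how counts depended on the GC content of a gene's exons: the slope of log2 counts over all tested genes per 10 percentage points of GC ran from -0.18 to -0.07 in the Sham-Saline libraries, -0.03 to 0.13 with Sham-DMI, -0.07 to 0.05 after SNI-Saline and 0.06 to 0.17 after SNI-DMI. Every Sham-Saline library thus had more counts on low-GC genes, relative to high-GC genes, than every SNI-DMI library, and Sham-Saline replicate 1 stood furthest out. Reads that fell on no gene made up 8.67% to 9.44% of Sham-Saline libraries and 7.10% to 9.14% of the others.

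Of the 63 genes, 51 passed edgeR's filter on low counts and were tested, and 12 did not. Exon GC content ran from 35.14% to 53.61% with a median of 38.69% over all 63, and 44 were under 40%. Over the 51 tested, the median GC content was 39.1% and the median exon length 3042 bases, against 49.1% and 3405 bases over all 21371 tested genes and 45.9% and 4784 bases over 288 other tested Zfp genes. Their median level was 4.27 CPM, against 9.33 CPM over all tested genes and 13.3 CPM over the other Zfp genes.

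Scaled per length, the 5 members with the highest levels were Zfp938, Zfp954, Zfp948, Zfp949 and Zfp946, from 10.3 CPM per kb of exon for Zfp938 to 5.89 CPM per kb for Zfp946, where the median over the tested members was 1.36 and the lowest 0.0701 CPM per kb for Zfp968. Zfp938 (chr10:82224850-82241280, minus strand) had 26.4, 24.3, 23.5 and 26.9 CPM in the 4 Sham-Saline libraries and 16.9, 17.01, 18.5 and 20.4 CPM in those of SNI-DMI, so that these groups did not overlap. Zfp949 (chr9:88548020-88571061, plus strand) was level across the study, with group means of 24.97 ± 1.77 CPM (Sham-Saline), 25.5 ± 1.44 CPM (Sham-DMI), 24.3 ± 1.58 CPM (SNI-Saline) and 25.05 ± 0.703 CPM (SNI-DMI; SD, n = 4 each). The exons of Zfp949 have 44.7% GC and those of Zfp938 36.6%. Zfp954 (chr7:7114690-7121488, minus strand), at 50.4% GC, had 22.1, 19.5, 17.6 and 19.9 CPM in Sham-Saline and 21.5, 24.5, 23.6 and 23.97 CPM in SNI-DMI, with 1 Sham-Saline library above the lowest SNI-DMI library.

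**Figure D1:**
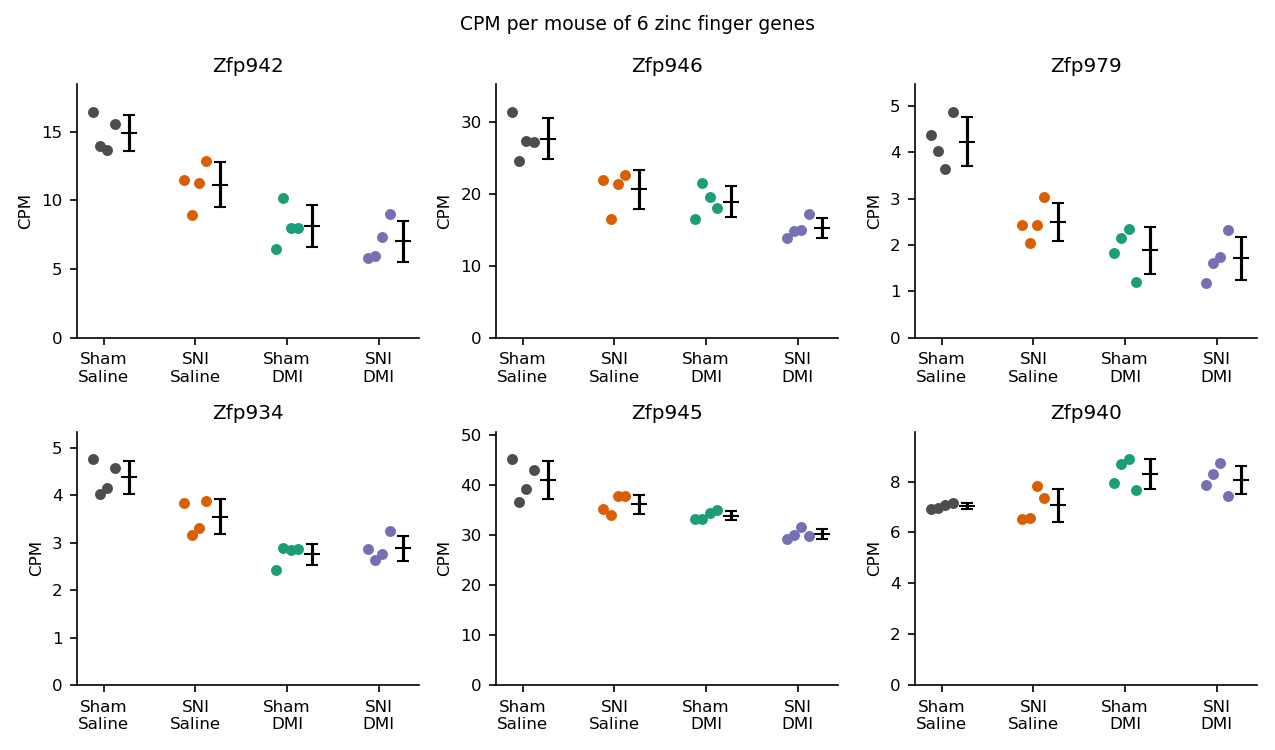
CPM (y axis, from 0) of Zfp942, Zfp946, Zfp979, Zfp934, Zfp945 and Zfp940 in each mouse (points) by group (x axis), with the mean and SD of 4 mice beside them in black. In all panels but that of Zfp940 the Sham-Saline mean is the highest of the 4 groups, and in Zfp940 both DMI means (8.30 and 8.08 CPM) are above both saline means (7.03 and 7.06 CPM).

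The first comparison, SNI-Saline versus Sham-Saline, asked what the injury alone changed. Of the 51 tested members, 11 were lower after SNI at an adjusted p under 0.1 in edgeR's quasi-likelihood test and none was higher, while over all tested genes 6.18% were called lower and 5.85% higher. Of the 288 other tested Zfp genes, 11.5% were called lower and 0% higher. The median log2FC of the members was -0.24, that of all tested genes was -0.000604, and log2FC was at or below 0 for 43 of the 51. By a nominal rule (p under 0.05 and an absolute log2FC of at least 0.32), 9 were lower and 0 higher, with 3.51% of all tested genes lower and 3.64% higher by that rule.

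Zfp946 (chr17:22424222-22456689, plus strand), a KRAB gene with 11 finger motifs, had the smallest p. Its levels were 31.5, 24.6, 27.4 and 27.3 CPM in Sham-Saline and 21.9, 16.6, 21.4 and 22.6 CPM in SNI-Saline. All Sham-Saline values lay above all SNI-Saline values, and the log2FC was -0.42 ± 0.10 (SE; edgeR adjusted p = 0.028). Zfp979 (chr4:147611937-147642513, minus strand), from the chromosome 4 cluster, had 4.38, 4.02, 3.63 and 4.88 CPM in Sham-Saline and 2.43, 2.05, 2.44 and 3.04 CPM in SNI-Saline. Those groups did not overlap either, with a log2FC of -0.76 ± 0.20 (edgeR adjusted p = 0.0371). Zfp944 (chr17:22337989-22361400, minus strand) fell from 14.2 ± 0.59 to 11.01 ± 1.08 CPM (SD, n = 4 each; log2FC -0.37 ± 0.10, edgeR adjusted p = 0.0397). Zfp937 (chr2:150218073-150240725, plus strand) fell from 3.0001 ± 0.315 to 2.16 ± 0.357 CPM (SD, n = 4 each; log2FC -0.47 ± 0.13, edgeR adjusted p = 0.043). The other 7 called were Zfp942, Zfp943, Zfp945, Zfp969, Zfp971, Zfp982 and Zfp983, from -1.03 for Zfp969 to -0.18 for Zfp945, and Zfp969 shares all its 50-base stretches with other genes.

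Fewer were called when the dependence of each library's counts on GC content and exon length was flattened before the same fit. With these offsets 3 members were lower after SNI (Zfp937, Zfp944 and Zfp946), with 2.56% of all tested genes lower and 3.39% higher, and the median log2FC of the members was -0.10. Of the other Zfp genes, 2.78% were then called lower. The number of calls also changed when 1 library was left out. It was 1 without SNI-Saline replicate 1 or 2, 2 without Sham-Saline replicate 1, 3 or 4, and 5 without SNI-Saline replicate 4. The share of all tested genes called in those refits is not given here. The counts thus do not show whether the loss is particular to the members. A DMI library is in neither group compared here but enters the shared filter, normalization and estimate of the spread. Leaving out such a library gave 6 calls for Sham-DMI replicate 3 or SNI-DMI replicate 1 and 7 for SNI-DMI replicate 3.

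Sham-DMI versus Sham-Saline asked what DMI changed in mice without injury, and it held the largest number of called members. Of the 51, 26 were lower with DMI and 1, Zfp940, was higher, where 11.9% of all tested genes were called lower and 11.6% higher. Of the 288 other tested Zfp genes, 22.9% were called lower and 3.82% higher. The median log2FC of the members was -0.36, and that of all tested genes -0.02. By the nominal rule 25 members were lower and 0 higher, with 7.57% of all tested genes lower and 3.93% higher.

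Zfp934 (chr13:62479827-62571199, minus strand) had 4.76, 4.02, 4.14 and 4.57 CPM in Sham-Saline and 2.43, 2.88, 2.85 and 2.87 CPM in Sham-DMI. The groups were well apart, the highest Sham-DMI value lying below the lowest of Sham-Saline, and the log2FC was -0.67 ± 0.11 (edgeR adjusted p = 0.00212). The gene shares its strand and part of its span with Zfp935, to which no read was assigned. Zfp942 (chr17:21926960-21962464, minus strand) had 16.5, 13.9, 13.7 and 15.6 CPM in Sham-Saline and 6.44, 10.2, 7.97 and 7.98 CPM in Sham-DMI. It too separated fully, at a log2FC of -0.87 ± 0.15 (edgeR adjusted p = 0.00212). Zfp979 had 1.83, 2.15, 2.35 and 1.2 CPM in Sham-DMI, all below its Sham-Saline values, and the lowest log2FC of any member in this comparison, -1.17 ± 0.21 (edgeR adjusted p = 0.00229). Zfp944 had 9.79 ± 1.23 CPM in Sham-DMI (SD, n = 4; log2FC -0.54 ± 0.10, edgeR adjusted p = 0.00292).

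Zfp940 (chr7:29833620-29853669, minus strand) went the other way. It had 6.92, 6.96, 7.09 and 7.15 CPM in Sham-Saline and 7.96, 8.67, 8.89 and 7.66 CPM in Sham-DMI, with every Sham-DMI value above every Sham-Saline value, and a log2FC of 0.24 ± 0.09 (edgeR adjusted p = 0.0684). An antisense gene, Gm26554, overlaps it, and whether the counting used strand is not given in the sources used here. The call of Zfp940 was kept with the GC content and length offsets (log2FC 0.33 ± 0.08, edgeR adjusted p = 0.0197). Among members called lower was also Zfp932, known as a repressor of endogenous retroviruses, at 12.5, 12.8, 11.2 and 11.97 CPM in Sham-Saline and 7.38, 9.32, 10.1 and 9.66 CPM in Sham-DMI (log2FC -0.41 ± 0.09, edgeR adjusted p = 0.00752). With the offsets Zfp932 was not called (log2FC -0.12 ± 0.08, edgeR adjusted p = 0.368). Zfp932 and Zfp940 were singled out after their values were seen.

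With GC content and length offsets, 10 members were lower and 1 higher in Sham-DMI, and 5.89% of all tested genes were lower and 9.26% higher. Of the other Zfp genes, 6.6% were lower and 3.1% higher in that fit. All 11 members had been called without the offsets, and 16 were called without them only. The 10 lower members were Zfp934, Zfp942, Zfp943, Zfp944, Zfp946, Zfp948, Zfp979, Zfp982, Zfp984 and Zfp994, of which 6 lie in the chromosome 17 cluster and 3 on chromosome 4. Zfp942 kept a log2FC of -0.57 ± 0.11 (edgeR adjusted p = 0.00683), Zfp979 of -0.83 ± 0.18 (edgeR adjusted p = 0.0117) and Zfp934 of -0.44 ± 0.10 (edgeR adjusted p = 0.013). The median over the 51 with offsets was -0.14.

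SNI-DMI versus SNI-Saline asked what DMI changed after injury. Here 12 of the 51 members were lower with DMI and none was higher, against 1.61% of all tested genes lower and 1.32% higher. Of the 288 other tested Zfp genes, 2.43% were called lower and 0.347% higher. The median log2FC of the members was -0.31, and that of all tested genes -0.0047. By the nominal rule 18 members were lower and 0 higher, with 3.8% of all tested genes lower and 1.93% higher.

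Zfp942 had the smallest p, with 11.5, 8.94, 11.2 and 12.9 CPM in SNI-Saline and 5.77, 5.97, 7.32 and 8.998 CPM in SNI-DMI. The groups overlapped at 1 value each, SNI-DMI replicate 4 lying just above SNI-Saline replicate 2, and the log2FC was -0.67 ± 0.15 (edgeR adjusted p = 0.063). Zfp938 had 24.98, 20.8, 22.6 and 25.8 CPM in SNI-Saline and 16.9, 17.01, 18.5 and 20.4 CPM in SNI-DMI, without overlap (log2FC -0.37 ± 0.09, edgeR adjusted p = 0.0674). Zfp943 (chr17:21962552-22071168, plus strand), the head-to-head neighbour of Zfp942, had 18.04, 15.98, 18.3 and 19.7 CPM in SNI-Saline and 11.2, 10.96, 12.2 and 15.8 CPM in SNI-DMI. Its groups did not overlap, at a log2FC of -0.52 ± 0.12 (edgeR adjusted p = 0.0683). The remaining 9 called were Zfp932, Zfp944, Zfp945, Zfp946, Zfp951, Zfp971, Zfp982, Zfp984 and Zfp993.

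None of the 12 was called with GC content and length offsets in edgeR, where 0.014% of all tested genes were called lower and 0.0234% higher. Of the other Zfp genes, 0% were called lower with these offsets. In that fit 14 of the 51 members had a nominal p under 0.05, against 2881 of all 21371 tested genes. The median log2FC of the 51 was -0.13. DESeq2, without offsets, called 20 members lower and 0 higher of the 40 to which it gave an adjusted p, all 20 among the 51, where it called 6.33% of all genes with an adjusted p lower and 5.3% higher. Without offsets the count again changed when 1 library was left out. It was 0 without any of SNI-Saline replicates 1, 3 and 4 or SNI-DMI replicates 1, 2 and 3, and 7 without Sham-Saline replicate 2 or 4. For those refits too, the share of all tested genes called is not given here. The adjusted p-values of the 12 lay between 0.063 and 0.0985, near the threshold.

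The DMI comparisons share no library with each other, though each shares its saline group with the injury comparison. Of the 26 members lower in Sham-DMI, 10 were also lower in SNI-DMI, which is 38.5% of the first list and 83.3% of the second, where the same shares were 9.82% and 72.4% over all tested genes and 19.7% and 86.6% over those under 40% GC. The 2 called lower in SNI-DMI and not in Sham-DMI were Zfp951 and Zfp993. The difference between the DMI effects was called for 0 of the 51 members and 0% of all tested genes by edgeR. A nominal p under 0.05 was reached by 2 members, Zfp934 and Zfp979, both past the nominal rule in the higher direction (2.24% of all tested genes, with 1.22% lower), and DESeq2 called 0 as well (0.0166% of all genes with an adjusted p lower and 0.0498% higher). Zfp934 had log2FCs of -0.67 ± 0.11 in sham and -0.30 ± 0.11 in SNI mice, a difference of 0.37 ± 0.16 (edgeR adjusted p = 0.619). For Zfp979 the difference was 0.64 ± 0.29 (edgeR adjusted p = 0.622). Both had lower means in SNI-Saline than in Sham-Saline, at 3.55 ± 0.367 against 4.38 ± 0.351 CPM for Zfp934 and 2.49 ± 0.409 against 4.23 ± 0.53 CPM for Zfp979 (SD, n = 4 each), although the injury difference of Zfp934 missed the threshold (edgeR adjusted p = 0.11). Next in order were Zfp968 and Zfp993, at 201 and 167 counts over all 16 libraries, with differences of -1.15 ± 0.66 and -0.90 ± 0.54 (edgeR adjusted p = 0.664 and 0.682).

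**Figure D2:**
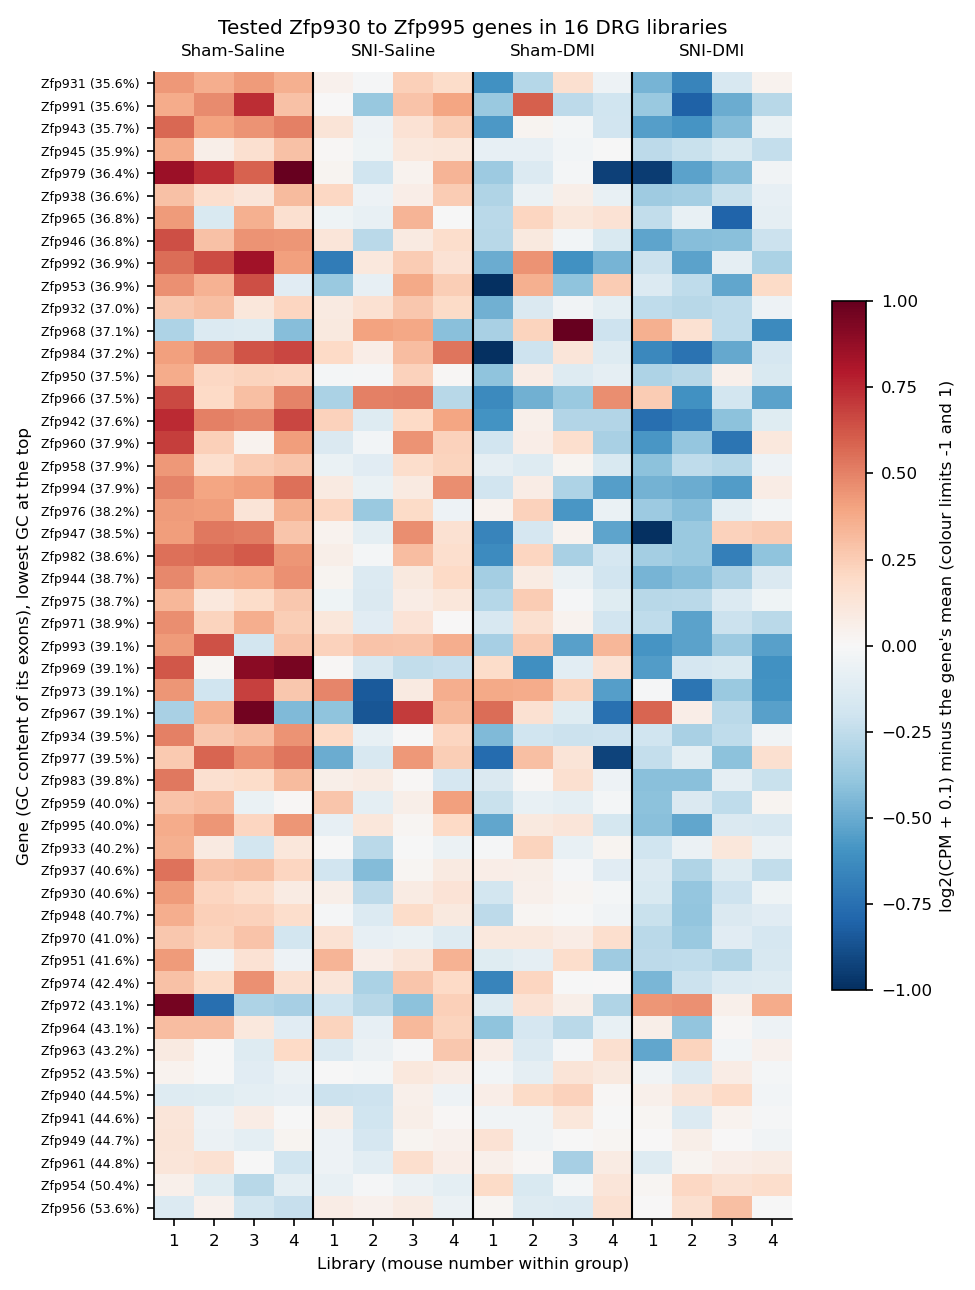
Log2(CPM + 0.1) of each tested member minus its mean over the 16 libraries (colour, limits -1 and 1), with genes as rows ordered by the GC content of their exons (lowest at the top) and libraries as columns by group. The red Sham-Saline columns and blue SNI-DMI columns are mainly in the upper rows, and the rows from Zfp952 (43.5% GC) down to Zfp956 (53.6%) are pale in all groups.

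Across the members, fold changes followed GC content. The 33 tested members with under 40% GC held 10 of the 11 injury calls, 21 of the 26 lower calls in Sham-DMI and 11 of the 12 in SNI-DMI, with median log2FCs of -0.29, -0.48 and -0.37 in that order. The 18 with 40% or more had medians of -0.04, -0.06 and -0.07. Over the 51 points Pearson's r between GC content and log2FC was 0.44 for the injury, 0.53 for DMI in sham mice and 0.58 for DMI in SNI mice, and Spearman's rho was 0.50, 0.61 and 0.67. These correlations are across genes counted in the same libraries, which are not independent replicates.

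Low-GC genes as a whole had medians below 0 as well. The 1378 tested genes of the whole series with under 40% GC had median log2FCs of -0.17, -0.29 and -0.21 in the injury, Sham-DMI and SNI-DMI comparisons, and 17.8%, 40.6% and 9.22% of them were called lower. With GC content and length offsets their medians were 0.02, -0.01 and -0.01, while the 33 members kept medians of -0.13, -0.22 and -0.17 and 2, 9 and 0 calls. In that fit 1.67%, 6.68% and 0% of the 1378 genes were called lower. The split at 40% was chosen after the data were seen.

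**Figure D3:**
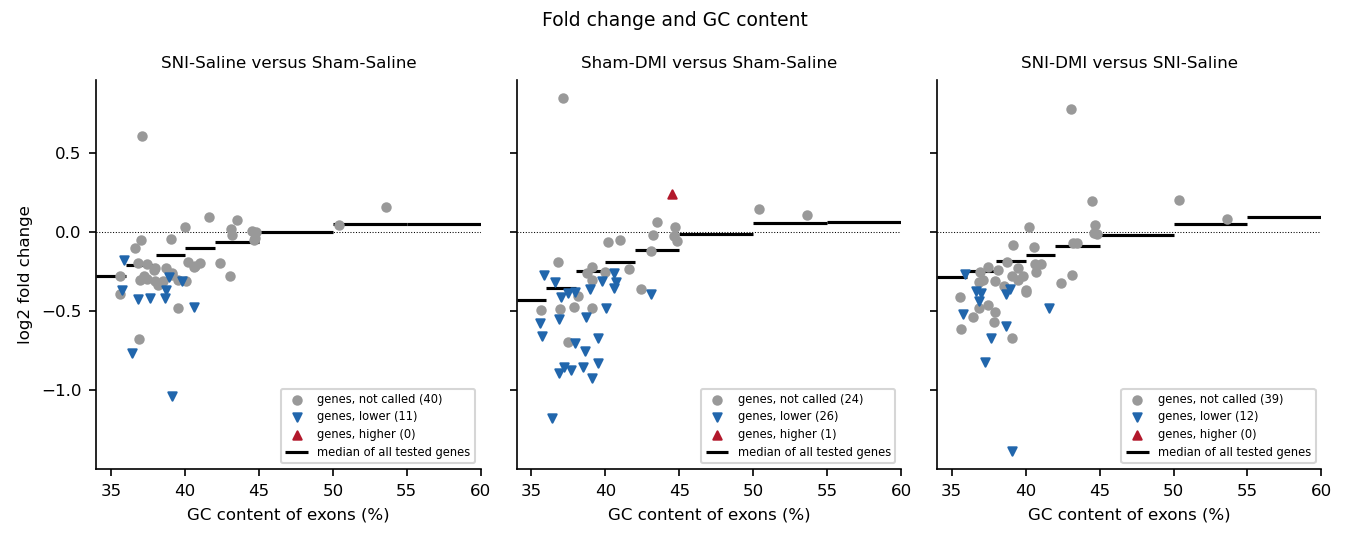
Log2 fold change (y axis) of the 51 tested members against the GC content of their exons in percent (x axis), 1 panel per comparison, with symbols by call and black bars for the median of all tested genes in each GC range. The called members lie at the left of each panel, where the bars are also below 0 (-0.43 under 36% GC in Sham-DMI versus Sham-Saline).

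The members whose fold change moved most with the offsets were long and low in GC content. Zfp945 (chr17:22846697-22867134, minus strand; 10173 exon bases, 35.9% GC) was called lower in all 3 comparisons without offsets. It had 45.2, 36.6, 39.2 and 42.9 CPM in the Sham-Saline mice and 33.1, 33.1, 34.3 and 34.997 CPM in the Sham-DMI mice. After SNI it had 35.3, 33.9, 37.7 and 37.8 CPM with saline and 29.2, 29.97, 31.5 and 29.8 CPM with DMI. Its log2FC turned from -0.18 ± 0.06 to 0.15 ± 0.07 for the injury (edgeR adjusted p = 0.279 with offsets). For DMI in sham mice it turned from -0.27 ± 0.06 to 0.17 ± 0.08 (edgeR adjusted p = 0.163 with offsets), and for DMI in SNI mice from -0.26 ± 0.06 to 0.01 ± 0.08 (edgeR adjusted p = 0.975 with offsets). Zfp950 (chr19:61053840-61140840, minus strand; 10615 exon bases, 37.5% GC), the member with the highest CPM, moved from -0.20 ± 0.09 to 0.08 ± 0.06 for the injury, neither called; it overlaps Grk5 on the other strand. Zfp943 (4786 exon bases, 35.7% GC) moved from -0.66 ± 0.12 to -0.27 ± 0.07 in Sham-DMI and was called in both fits (edgeR adjusted p = 0.0294 with offsets).

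**Figure D4:**
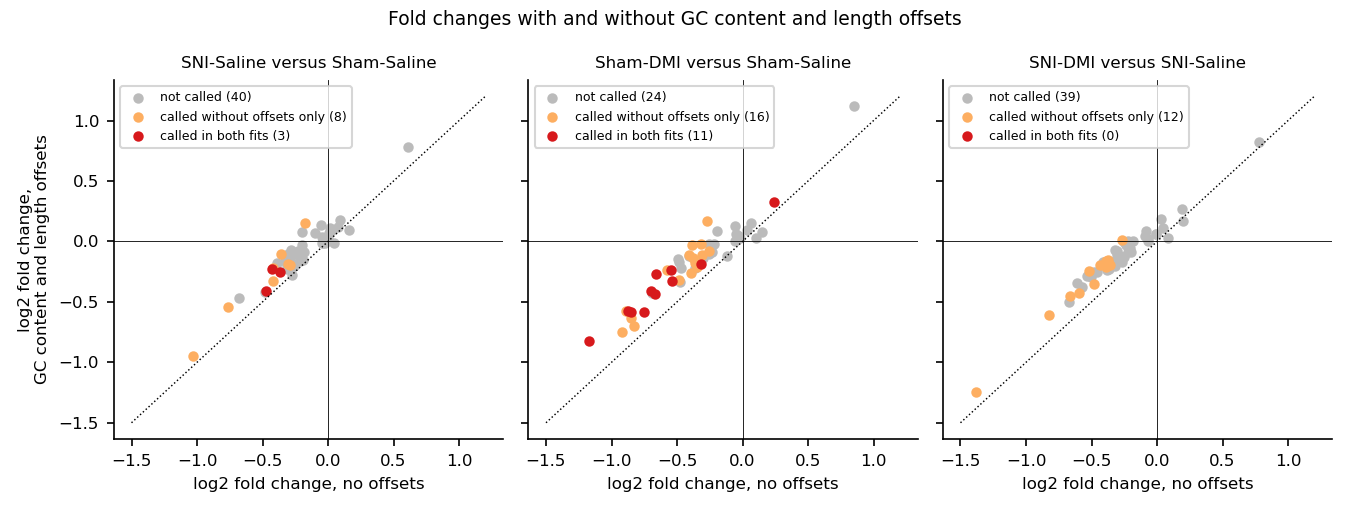
Log2 fold change of each tested member without (x axis) and with (y axis) GC content and length offsets in 3 comparisons, coloured by the fits that called it, with a dotted line of equality. Of the 51 points, 48, 49 and 49 lie above the line, and 3, 11 and 0 members were called in both fits.

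For each library, the mean log2 deviation of the 51 members from each gene's mean over all libraries ran from 0.22 to 0.39 in the Sham-Saline libraries, -0.26 to 0.05 with Sham-DMI, -0.11 to 0.17 after SNI-Saline and -0.30 to -0.14 after SNI-DMI. Sham-Saline overlapped no other group, SNI-DMI lay wholly below SNI-Saline, and Sham-DMI overlapped both SNI groups. Libraries with a higher GC slope mostly had lower values. With the offsets the ranges were 0.08 to 0.18, -0.11 to 0.04, -0.07 to 0.10 and -0.13 to -0.08 in the same order. Sham-Saline then overlapped SNI-Saline, and SNI-DMI still lay wholly below SNI-Saline. For the other 288 Zfp genes the ranges were, without offsets, 0.08 to 0.14, -0.12 to 0.06, -0.07 to 0.06 and -0.10 to -0.04. The part of the GC slope in the differences that remained after the offsets was not tested. In whole ganglia, fewer cells of a type and less RNA per cell cannot be told apart, and neutrophil markers moved with DMI as well: 6 of 8 were lower in Sham-DMI than in Sham-Saline and 2 of 8 lower in SNI-DMI than in SNI-Saline, the mean log2(CPM + 1) of the list running from 1.10 to 2.26 and from 1.39 to 2.49 in the saline libraries of sham and SNI mice, and from 0.52 to 1.61 and from 0.59 to 1.28 in the DMI libraries. Of the injured-neuron markers 4 of 7 were higher in Sham-DMI than in Sham-Saline (median log2FC 0.69) and 0 of 7 were called in SNI-DMI versus SNI-Saline, the mean log2(CPM + 1) of that list running from 2.19 to 2.52 with Sham-Saline and from 2.60 to 3.44 with Sham-DMI. Of the sensory neuron markers, 4 of 10 were higher and 1 lower in Sham-DMI (median log2FC 0.14). In the same comparison, 2 of 5 satellite glia markers were higher and 1 lower, 1 of 6 macrophage markers was lower, and no Schwann cell, red cell or tested spinal cord marker was called. In SNI-Saline versus Sham-Saline, 2 of 6 macrophage markers were higher, and 1 of 5 satellite glia markers was higher and 1 lower. Of the 10 sensory neuron markers 1 was higher and 1 lower there, and no neutrophil, Schwann cell or red cell marker was called. For DMI in SNI mice, 1 satellite glia marker was higher and 1 lower. No sensory neuron, macrophage, Schwann cell, red cell or tested spinal cord marker was called in SNI-DMI. The part of these lists in the result was not tested.

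**Figure D5:**
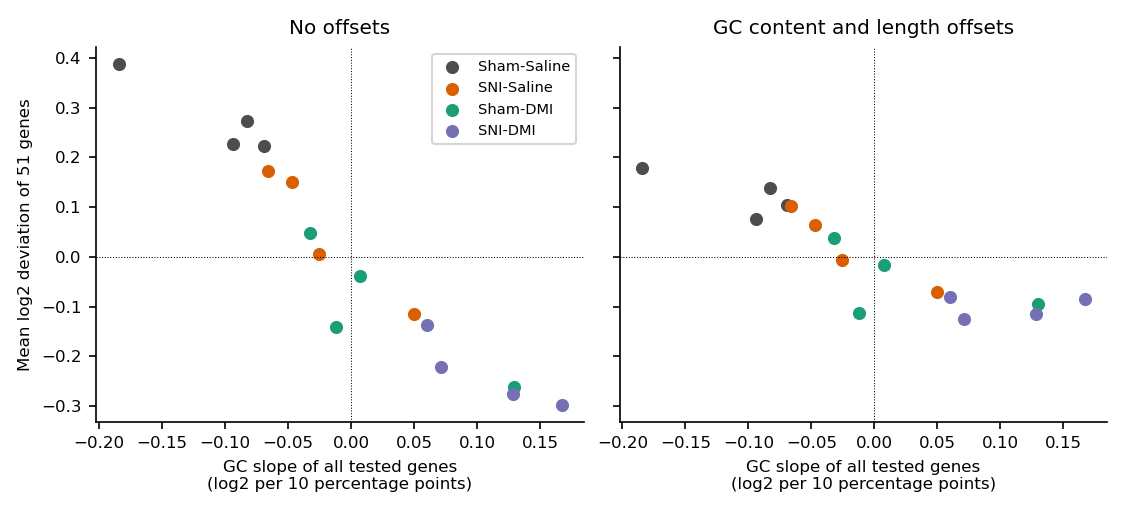
Mean log2 deviation of the 51 tested members (y axis) against the GC slope of all tested genes (x axis, log2 per 10 percentage points) for each of the 16 libraries, coloured by group, without offsets on the left and with GC content and length offsets on the right. On the left the points fall from Sham-Saline (0.22 to 0.39) to SNI-DMI (-0.30 to -0.14), and on the right the range is narrower.

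By position, 36 members lay in 3 runs of at least 5 members in which each gene was within 1 Mb of the next, and shorter runs are not described. On chromosome 17, chr17:21567008-22867134 held 10 members, all tested, at 0.74 to 35.3 CPM. All 10 were called lower in Sham-DMI, 6 were lower after injury and 5 in SNI-DMI, with median log2FCs of -0.54, -0.31 and -0.38 in that order; with offsets 6, 2 and 0 were lower. On chromosome 4, chr4:145510759-147848366 held 16 members, of which 7 were tested; deletion of this cluster in mice is known to release endogenous retroviruses. Of those 7, 4 were lower in Sham-DMI, 2 after injury and 3 in SNI-DMI, and 3, 0 and 0 with offsets. On chromosome 2, chr2:175372436-178078476 held 10 tested members, of which 3, 2 and 1 were lower and 0, 0 and 0 with offsets. Over all tested genes 11.9%, 6.18% and 1.61% were lower in that order, and 5.89%, 2.56% and 0.014% with offsets. Over those under 40% GC the shares were 40.6%, 17.8% and 9.22%, and 6.68%, 1.67% and 0% with offsets.

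These clusters differed in how much sequence their members share. Of the 50-base stretches in a member's exons, the median share also present in another gene's transcripts was 87.3% on chromosome 2, 61.2% on chromosome 4 and 7.82% on chromosome 17. A read pair that lies wholly in shared sequence can align in more than 1 place, so that levels of such members are uncertain. Over all 63, 19 shared more than 50% and had a median of 0.213 CPM, and 23 shared under 10% and had a median of 13.5 CPM. Of the 22 tested members under 10%, 5, 12 and 6 were called lower in the injury, Sham-DMI and SNI-DMI comparisons, and 1, 4 and 0 with offsets, against the shares of all tested genes given above. Their median log2FCs were -0.18, -0.29 and -0.24, and -0.01, -0.05 and -0.03 with offsets. Zfp967 and Zfp969, whose identical finger unit is shown above, share 100% of their stretches with other genes and had 219 and 323 counts over the 16 libraries.

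Zfp942 and Zfp943 are transcribed away from each other, with 87 bases between their annotated starts. Both were called lower in all 3 comparisons without offsets, and only in Sham-DMI with offsets. The stretch between their starts is printed with the 140 bases before the starts of Zfp944, Zfp946 and Zfp938. Those genes were called lower in Sham-DMI without offsets. With offsets Zfp944 and Zfp946 kept the call. Zfp938 did not, with means corrected for GC content and length of 21.7 CPM in Sham-Saline and 21.4 CPM in Sham-DMI. Sequences are from RefSeq's GRCm38.p6 table, on the strand of the gene, and capitals mark the motifs CCAAT (the box bound by NF-Y), CCGGAA (the core of many ETS factor sites), GGGCGG (a GC box of the Sp1 type) and CACGTG (an E-box), all searched on both strands.
Zfp942: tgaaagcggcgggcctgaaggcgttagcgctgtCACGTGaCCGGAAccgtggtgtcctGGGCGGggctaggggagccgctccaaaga
Zfp944: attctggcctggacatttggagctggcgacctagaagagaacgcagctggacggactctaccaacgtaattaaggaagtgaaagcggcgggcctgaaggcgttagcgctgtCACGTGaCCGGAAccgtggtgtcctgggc
Zfp946: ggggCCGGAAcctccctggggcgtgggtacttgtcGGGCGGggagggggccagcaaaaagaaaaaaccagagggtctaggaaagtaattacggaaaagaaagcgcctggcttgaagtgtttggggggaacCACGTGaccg
Zfp938: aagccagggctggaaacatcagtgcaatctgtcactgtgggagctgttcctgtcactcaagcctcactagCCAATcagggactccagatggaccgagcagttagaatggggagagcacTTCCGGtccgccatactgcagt

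They lie at chr17:21962465-21962551 (minus strand), chr17:22361401-22361540 (minus strand), chr17:22424062-22424201 (plus strand) and chr10:82241276-82241415 (minus strand). Zfp942 and Zfp944 hold the E-box and the ETS core next to each other, 54 and 47 bases before the start of Zfp942 and 29 and 22 before that of Zfp944, and Zfp946 holds CACGTG 10 bases before its start. In the 250 bases before the start, CCAAT was present in 40 of the 53 members matched by symbol (75.5%), in 46.6% of 283 other Zfp genes and in 37.5% of 27025 genes with a promoter in the table. CCGGAA was present in 41.5% of the members, 29.7% of the other Zfp genes and 13.6% of all genes. For GGGCGG the shares were 30.2%, 44.2% and 35.4%, and for CACGTG, which was added after the sequences were seen, 13.2%, 5.30% and 6.86%. TATAAA was in none of the 53, in 9.19% of the other Zfp genes and in 14.3% of all genes. The median GC content of these 250 bases was 49.2% in the members, 55.5% in the other Zfp genes and 52.4% in all genes. The part of base composition and of shared descent by duplication in the motif shares was not tested. CACGTG reads the same on both strands, and no pair of the other motifs contains one another.

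Of 35 listed co-repressors and other chromatin proteins that work with KRAB proteins, 34 were tested; 5 were lower after injury, 6 lower in Sham-DMI and 0 in SNI-DMI by edgeR at the same threshold, with none higher, and their median log2FCs were -0.04, -0.04 and 0.05. The shares lower after injury and in Sham-DMI were 14.7% and 17.6%, against the 6.18% and 11.9% of all tested genes given above. In SNI-DMI 9 had a nominal p under 0.05, against 3961 of all 21371 tested genes, and DESeq2 called 1 lower and 1 higher. Trim28, the scaffold itself, had 75.8, 81.999, 83.9 and 82.7 CPM in the Sham-Saline mice, 105, 83.02, 82.3 and 79.3 with Sham-DMI, 78.5, 85.1, 77.8 and 85.4 after SNI-Saline and 90.6, 102, 89.9 and 85.7 after SNI-DMI, and was called in none of the comparisons (edgeR adjusted p = 0.954, 0.37 and 0.234 in the injury, Sham-DMI and SNI-DMI comparisons). Setdb1, the H3K9 methyltransferase, was not called either (edgeR adjusted p = 0.511, 0.782 and 0.604). The genes lower in Sham-DMI were the chromatin remodellers Atrx (log2FC -0.52) and Smarcad1 (-0.34), Fam208a of the HUSH complex (-0.47), the HP1 gene Cbx5 (-0.19), the Setdb1 partner Atf7ip (-0.15) and the NuRD subunit Mta3 (-0.18). After injury they were Cbx5, Fam208a and the NuRD subunits Chd3, Gatad2b and Mta3, from -0.36 for Fam208a to -0.22 for Mta3. With offsets Chd3, Mta1 and Mta3 were lower in Sham-DMI and Cbx1, Hdac2 and Rbbp4 were higher. In that fit 5.89% of all tested genes were lower and 9.26% higher. Of the 6 lower in Sham-DMI without offsets, only Mta3 kept its call. After injury 3 were lower with offsets and 0 higher, against 2.56% of all tested genes lower and 3.39% higher.

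The 12 members that were not tested had 0 to 94 counts each over all 16 libraries, and 9 of them lie on chromosome 4. Zfp985 had 94 counts, with 0.191, 0.155, 0.218 and 0.0906 CPM in Sham-Saline and 0.0174, 0.0306, 0.0495 and 0.136 CPM in SNI-DMI. Zfp988 had 78 counts, with 0.157, 0.0847, 0.171 and 0.0906 and 0.0349, 0.0306, 0.033 and 0.0603 CPM, and Zfp990 had 66, with 0.157, 0.0565, 0.0779 and 0.106 and 0, 0.0766, 0.066 and 0.0603 CPM. At these depths a CPM rests on few reads, and no difference was tested. Zfp935, all of whose 50-base stretches occur in other transcripts, had 0 counts in every library.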

How the data were processed

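RNA of L3 to L6 DRGs from 16 mice, 1 library each, was sequenced by the authors, who aligned the reads to mm10 with HISAT2 and counted them per gene with HTSeq. The values are whole-number counts as deposited, with no normalization, and the 5 closing lines of reads not assigned to a gene were left out. Versions, annotation release and strand setting are not given in the sources used here, and the sources differ on whether weeks or months passed between surgery and treatment. The members and gene lists were chosen with earlier results of these data known.

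Symbols, coordinates, exon length and GC content came from GENCODE M21 on GRCm38. Counts were fitted in R 4.3.3 with edgeR 4.0.16 (filterByExpr, TMM, glmQLFit with 1 coefficient per group on all 16 libraries, glmQLFTest), with Benjamini-Hochberg adjusted p over 21371 genes and a threshold of 0.1. CPM are library-scaled by TMM. In the fit with offsets, a smooth trend of each library's log2 counts on GC content and log length (mgcv 1.9.3, basis size 8) was removed. DESeq2 1.42.0 and the study's nominal rule were alternatives. A share of 50-base stretches was counted in the annotated transcripts. The fit was run on simulated counts without a GC trend, and the trend step on simulated counts with a trend in 1 library. Neither simulation held a GC slope that differed between groups, so the fit with offsets was not tested in that setting. The chi-square per gene between replicates ran from 9.66 to 40.4, more than counting error, so no pair of libraries was merged. Nothing says which mice shared a cage or day, and p-values measure the spread between these mice. Genes were named by a rule: the 5 members with the highest CPM per kb, the 4 with the smallest p in each comparison, the 2 whose fold change moved most with the offsets in each two-group comparison, the 3 untested members with the most counts, and, of the co-repressors, those called together with Trim28 and Setdb1.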

Additional observations from a re-analysis of the deposited data

Results flagged for a closer look

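Of 72 sets of 4 mice checked for a value far from the other 3, 4 held one by Dixon's test, and chance alone gives about 1 in 20. Zfp934 in Sham-DMI replicate 1 was the lowest of its group at 2.43 CPM, where the others had 2.88, 2.85 and 2.87 CPM. Zfp950 was the highest of its group in Sham-Saline replicate 1, at 50.2 CPM against 44.8, 45.3 and 45.1 CPM. It was also the highest in SNI-Saline replicate 3, at 45.6 CPM against 38.3, 38.4 and 39.1 CPM. In the same library, SNI-Saline replicate 3, reads on no gene made up 9.14%, against 7.73% to 7.78% in the other SNI-Saline libraries.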

How the results depend on the processing

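For the injury comparison, the 11 called members became 3 with GC content and length offsets, 4 with the GC content offset alone, 7 with the exon length offset, without a filter on low counts or with upper-quartile normalization, and 0 with the replicate block and both offsets. Its median log2FC of -0.24 became -0.10 with both offsets and -0.095 with the GC content offset. For DMI in sham mice, 27 calls became 11 with both offsets, with the GC content offset and with the replicate block and both offsets, and the median of -0.36 became -0.14, -0.13 and -0.14. For DMI in SNI mice, 12 calls became 0 with both offsets, with the GC content offset and with the replicate block and both offsets, 5 with the replicate block alone and 20 with DESeq2, and the median of -0.31 became -0.13, -0.13 and -0.12. The difference between the DMI effects had 0 calls except for 2 under the nominal rule. Without 1 library at a time, calls ran from 1 to 13, from 20 to 31, from 0 to 16 and 0 in every case, and medians from -0.28 to -0.17, from -0.40 to -0.31, from -0.36 to -0.27 and from 0.00 to 0.12, in the same order. Apart from both offsets without the block, DESeq2 and the nominal rule, shares of all tested genes called under these alternatives are not given here.

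Zfp945 reversed sign, to 0.15, 0.065 and 0.15 (injury; both offsets, GC content offset, replicate block with both offsets), to 0.17, 0.089 and 0.17 (DMI in sham mice, the same) and to 0.00904 and 0.00999716 (DMI in SNI mice; both offsets, without and with the replicate block). Zfp950 reversed to 0.077 and 0.075 for the injury under both offsets, without and with the replicate block. Of the 194 values of single named genes under these alternatives, 10 were such reversals, 164 kept their direction and side of the threshold, 19 lost the call and 1 gained it, and without 1 library 274 of 320 kept both and 46 lost the call. Replicate numbers paired no samples by their deviations (r from -0.08 to 0.18 over 12 pairs), so the block has no basis in the design. At 4 mice a group and a GC slope that differs between groups, members with small or low-count changes cannot be settled, and the cause of the lost calls was not tested.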
